A study of Mus musculus with 4 samples.

Results

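The probe sets for immunoglobulin chains and for B cell genes were examined in intestinal mucosa, from males of the A/J and C57BL/6J strains given a high-fat or a low-fat diet. Members were all probe sets whose platform symbol starts with Igk, Ighv, Ighg, Igha, Ighm (not Ighmbp2), Ighd, Iglv or Iglc, together with Jchain, Pou2af1, Cd79a, Cd79b, Ms4a1, Cd22, Blnk and Ly6d. The rule used names only and no measured value, but it was chosen with earlier results of these data known. It found 65 of the 22626 probe sets that are not controls, of which 52 carry 1 gene symbol and 13 carry several. By chain, 3 were for the IgA heavy chain (Igha), 15 for the IgM heavy chain (Ighm) alone or with other heavy chain genes, 4 for the IgG heavy chain gene Ighg3 and 1 for the heavy variable segment Ighv14-2. Another 3 included the kappa constant region Igkc, 26 were for kappa variable segments or the kappa locus, 3 were for lambda and 10 were for the B cell genes.

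The groups were A/J on high-fat (A/J-HF), A/J given low-fat food (A/J-LF), C57BL/6J on high-fat (C57BL/6J-HF) and C57BL/6J given low-fat food (C57BL/6J-LF), all 10 weeks old and on their diet for 2 weeks. Each group held 6 mice, RNA of 2 of them with average body weight was pooled, and each pool went onto 1 Affymetrix Mouse Expression Array 430A. A group is therefore 1 array, so a ratio of 2 arrays has no replicate check and no test. A/J is known as resistant and C57BL/6J as prone to obesity on a high-fat diet.

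Plasma cells of the gut wall make mostly IgA, built from alpha heavy chains and kappa or lambda light chains. The J chain joins IgA molecules into polymers, which the epithelial receptor Pigr carries into the lumen. Each plasma cell uses 1 heavy and 1 light variable segment, so the signal of a single segment can follow the expansion of a few clones, whereas constant region signals sum over many cells. B cells, their precursors, carry a receptor of membrane immunoglobulin with Cd79a and Cd79b.

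The deposited signals were scaled to a common trimmed mean of 500, and values under a floor of 100 were set to 100 before ratios were taken. A ratio with 1 side at the floor is a bound. The median deposited signal of all probe sets was between 43.9 and 57.1 on the 4 arrays, and between 58.6% and 60.4% of probe sets reached the floor after scaling. Of the 65 members, 39 had a mean scaled signal of at least 100 and were tested. On all 4 arrays 34 members were at or above the floor, and 24 were below it on all 4. The arrays differed in other tissue signals. The summed signal of 7 exocrine pancreas markers was 1623 in A/J-HF, 65541 in A/J-LF, 101730 in C57BL/6J-HF and 66145 in C57BL/6J-LF. The control probe set for the 5′ part of 18S ribosomal RNA had 84.4 in A/J-HF, 217.7 in A/J-LF, 1675 in C57BL/6J-HF and 11010 in C57BL/6J-LF.

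**Figure D1:**
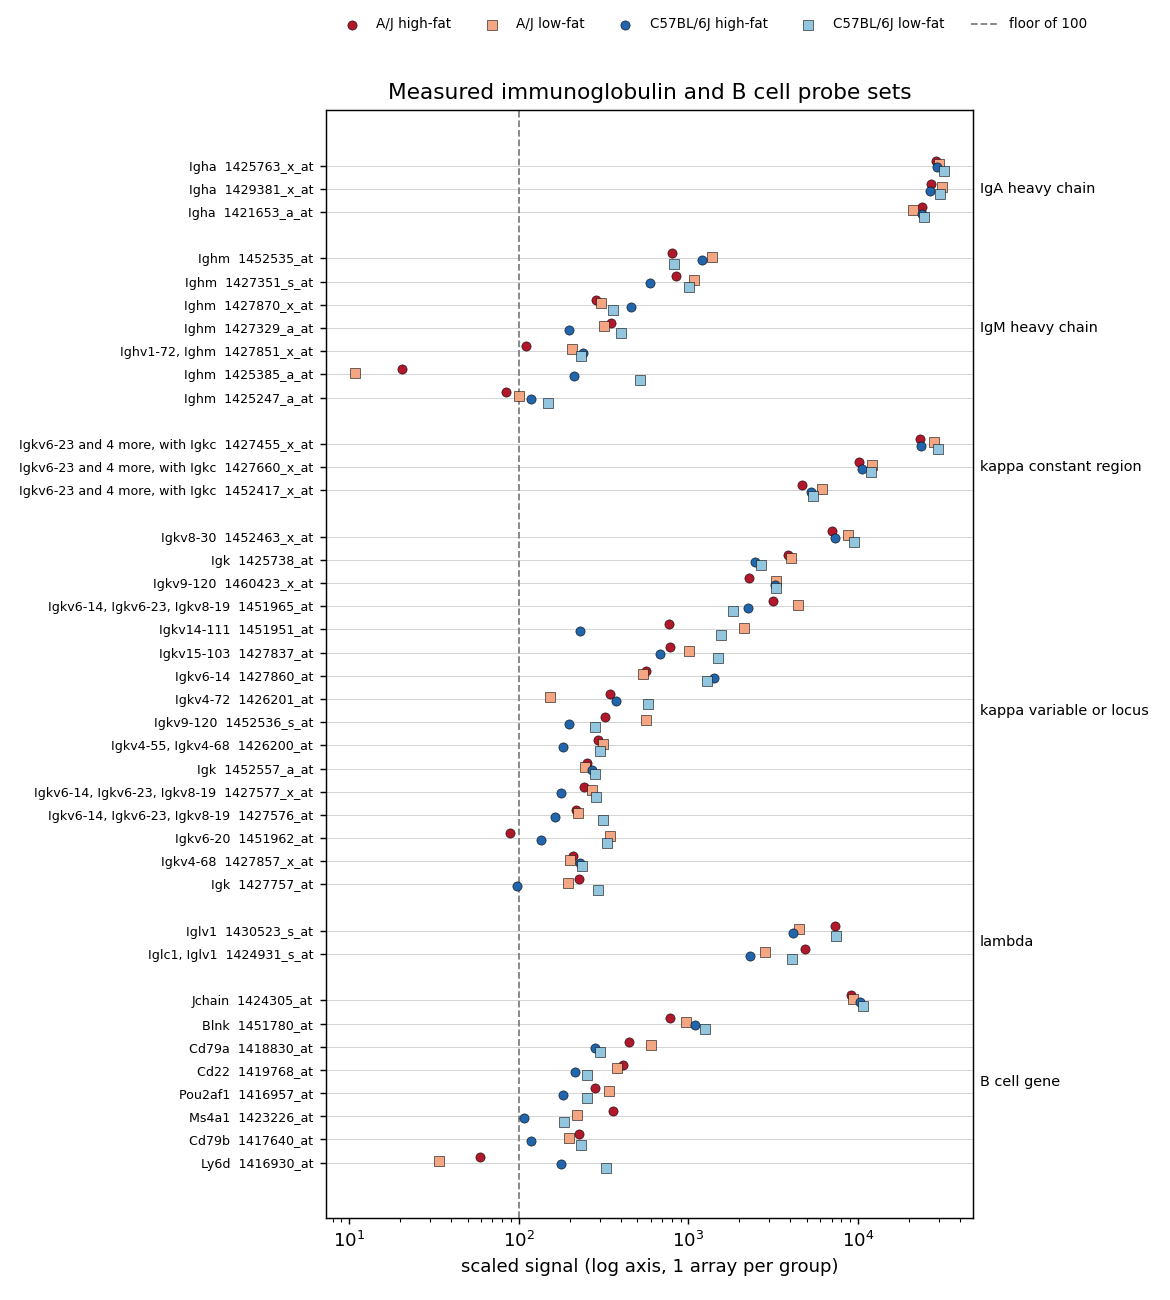
Scaled signal (log axis) of the 39 measured members on each of the 4 arrays, grouped by chain or gene class; circles are high-fat and squares low-fat arrays, red tones A/J and blue tones C57BL/6J, and the dashed line is the floor of 100. The IgA heavy chain, kappa constant region and Jchain points lie close together across arrays, whereas Ighm 1425385_a_at and Ly6d lie below the floor on both A/J arrays and above it on both C57BL/6J arrays.

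The IgA heavy chain differed by at most 1.165-fold in each strain and diet comparison. The 3 Igha probe sets were among the 27 brightest of all probe sets on every array. Probe set 1425763_x_at had a signal of 28700 in A/J-HF, 29990 in A/J-LF, 29180 in C57BL/6J-HF and 32090 in C57BL/6J-LF. Probe set 1429381_x_at had 27040 in A/J-HF, 31250 in A/J-LF, 26700 in C57BL/6J-HF and 30370 in C57BL/6J-LF. The ratio of 1.165-fold was of 1421653_a_at, which was lower in A/J-LF than in C57BL/6J-LF. Signals this close to the top of the scale can be compressed, and saturation was not tested. Jchain, the joining chain of polymeric IgA and IgM, had 9125 in A/J-HF, 9380 in A/J-LF, 10290 in C57BL/6J-HF and 10720 in C57BL/6J-LF. It was 1.13-fold lower in A/J on high-fat and 1.14-fold lower on low-fat, and its strain term of -0.18 on the log2 scale had an SE of 0.191 (limma adjusted p = 0.65).

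Probe sets with the kappa constant region were lower on both high-fat arrays by at most 1.31-fold. The 3 of them also match Igkv6-23, Igkv4-53, Igkv8-30 and Igkj1, so their signals are not from Igkc alone. Probe set 1427455_x_at had 23090 in A/J-HF and 28120 in A/J-LF, with 23400 in C57BL/6J-HF and 29570 in C57BL/6J-LF. The second, 1427660_x_at, had 10160 in A/J-HF and 12180 in A/J-LF, with 10610 in C57BL/6J-HF and 11910 in C57BL/6J-LF. The third, 1452417_x_at, had 4677 in A/J-HF and 6133 in A/J-LF, with 5270 in C57BL/6J-HF and 5439 in C57BL/6J-LF. All 3 were lower on high-fat in each strain. The high-fat arrays were lower by 1.20-fold to 1.31-fold over the 3 probe sets in A/J and by 1.03-fold to 1.26-fold in C57BL/6J. Igkv8-30 (1452463_x_at) had 7051 in A/J-HF against 8702 in A/J-LF, and 7308 in C57BL/6J-HF against 9543 in C57BL/6J-LF. None of these passed the limma test for diet. The smallest adjusted p was 0.73, for Igkv8-30.

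Lambda light chain probe sets had diet ratios of opposite direction in the strains. Lambda is the minor light chain of mouse antibodies. The Iglv1 probe set 1430523_s_at had 7366 in A/J-HF and 4498 in A/J-LF, with 4136 in C57BL/6J-HF and 7469 in C57BL/6J-LF. The probe set 1424931_s_at, annotated to the constant region Iglc1 and to Iglv1, had 4887 in A/J-HF and 2842 in A/J-LF, with 2323 in C57BL/6J-HF and 4101 in C57BL/6J-LF. A/J high-fat and C57BL/6J low-fat were thus the higher arrays in both probe sets. In A/J the high-fat array was 1.64-fold higher in the first and 1.72-fold higher in the second. In C57BL/6J it was 1.81-fold and 1.77-fold lower. Both probe sets are annotated to Iglv1, so they are not independent readings. The third Iglv1 probe set, 1427292_at, was below the floor on all arrays. The summed signal of the 2 lambda probe sets was 0.323 of the summed kappa constant region signal in A/J-HF and 0.158 in A/J-LF. It was 0.164 in C57BL/6J-HF and 0.247 in C57BL/6J-LF. These ratios compare arrays and are not a ratio of chain amounts, since probe sets differ in brightness. The additive fit has no term for such a difference between strains, and with 1 array per group it was not tested.

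Diet ratios of at least 1.5-fold in opposite directions, higher on high-fat in A/J and lower in C57BL/6J, were found for 4 of the 39 tested members. Over all 13431 tested probe sets this share was 0.238%. Besides the lambda probe sets these were Igkv4-72 and Ms4a1. Igkv4-72 (1426201_at) had 345.9 in A/J-HF and 152.5 in A/J-LF, with 375.2 in C57BL/6J-HF and 576.0 in C57BL/6J-LF. Ms4a1, the B cell surface protein CD20, had 361.9 in A/J-HF and 219.4 in A/J-LF, with 107.4 in C57BL/6J-HF and 184.5 in C57BL/6J-LF. Its second probe set, 1450912_at, was below the floor on all arrays. In the reverse sense, lower on high-fat in A/J and higher in C57BL/6J, 0 members differed by as much, against 0.499% of all probe sets. The nearest was the Ighm probe set 1452535_at, with 799.1 in A/J-HF, 1376 in A/J-LF, 1200 in C57BL/6J-HF and 818.0 in C57BL/6J-LF. It was 1.72-fold lower on high-fat in A/J and 1.47-fold higher in C57BL/6J.

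**Figure D2:**
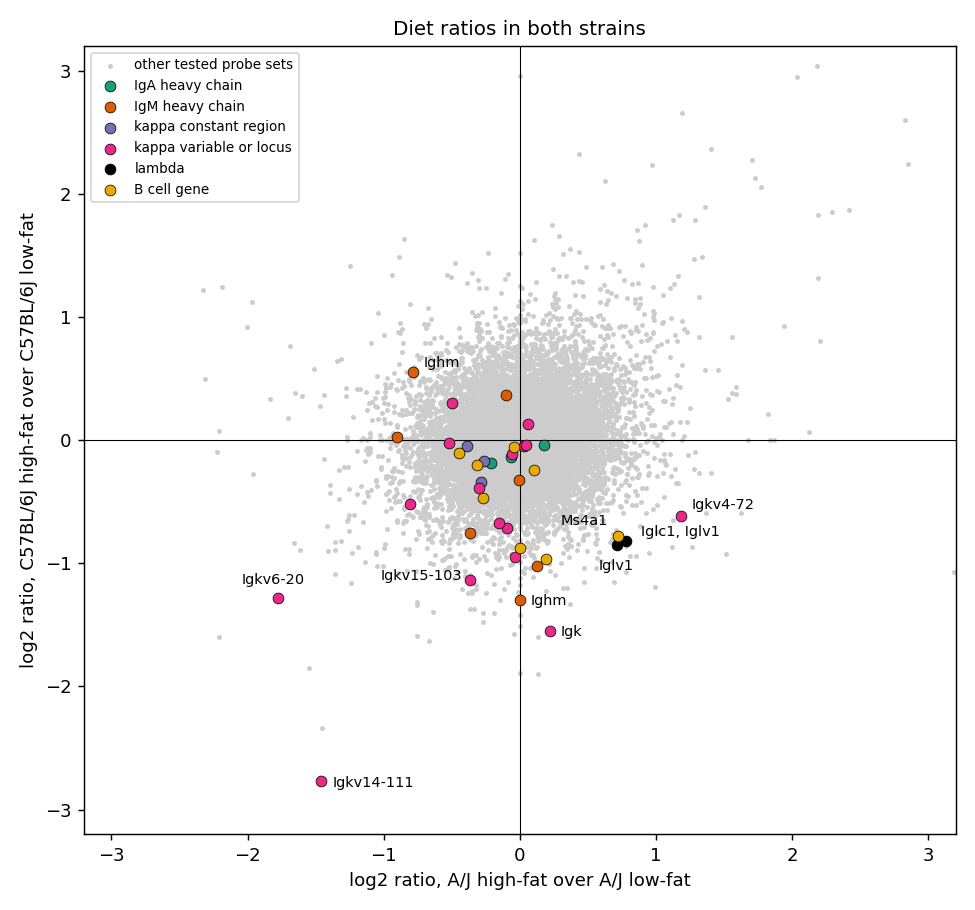
Log2 ratio of high-fat over low-fat for each tested probe set, in A/J on the horizontal axis and in C57BL/6J on the vertical axis; coloured points are the 39 members by class, grey points are other tested probe sets, and 36 of these lie outside the axes. The lambda probe sets, Igkv4-72 and Ms4a1 lie at the lower right, and Igkv14-111 and Igkv6-20 lie at the lower left.

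A pair of kappa variable segments was at least 1.5-fold lower on the high-fat array in both strains, where 0.625% of all tested probe sets were. At least 1.5-fold higher in both were 0 members, where 1.07% of all were. Igkv14-111 (1451951_at) had 770.3 in A/J-HF and 2116 in A/J-LF, with 229.2 in C57BL/6J-HF and 1563 in C57BL/6J-LF. It was 2.75-fold lower on high-fat in A/J and 6.82-fold lower in C57BL/6J, and both high-fat values were below both low-fat values. Igkv6-20 (1451962_at) had 89.4, which is under the floor, in A/J-HF and 343.1 in A/J-LF, with 135.4 in C57BL/6J-HF and 329.7 in C57BL/6J-LF. The high-fat signal was lower by at least 3.43-fold in A/J, and it was 2.435-fold lower in C57BL/6J.

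In the additive limma fit over all 4 arrays, Igkv14-111 fell with high-fat diet, with a log2 term of -2.11 (SE 0.297, adjusted p = 0.04995). Igkv6-20 had a log2 term of -1.53 with its A/J-HF value set to the floor (SE 0.209, limma adjusted p = 0.0481), and -0.75 with a floor of 200 (adjusted p = 0.44). These were 2 of 39 members tested, where 0.0372% of all probe sets fell, and 0 members rose, where 0.134% of all probe sets did. Without adjustment 5 of the 39 members had a p under 0.05 for diet, as had 8.21% of all probe sets. Both calls stand at the edge of the threshold: with control probe sets in the scaling mean the limma adjusted p was 0.0642 for Igkv14-111 and 0.0582 for Igkv6-20. The error of this fit is the strain-by-diet difference with 1 residual degree of freedom, moderated over all probe sets. It holds no spread between pools of a group. With 1 array left out only a fit of the tested factor alone was made, which calls 0 members for either term. With all 4 arrays that fit already called 0 members for diet and 1 for strain, so it says little about any single array. Other kappa segments were less regular. Igkv15-103 (1427837_at) had 779.8 in A/J-HF and 1003 in A/J-LF, with 678.7 in C57BL/6J-HF and 1494 in C57BL/6J-LF, which is 1.29-fold and 2.20-fold lower on high-fat (limma adjusted p = 0.43). Igkv4-68 (1427857_x_at) lay between 201.4 and 235.6 on all 4 arrays.

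**Figure D3:**
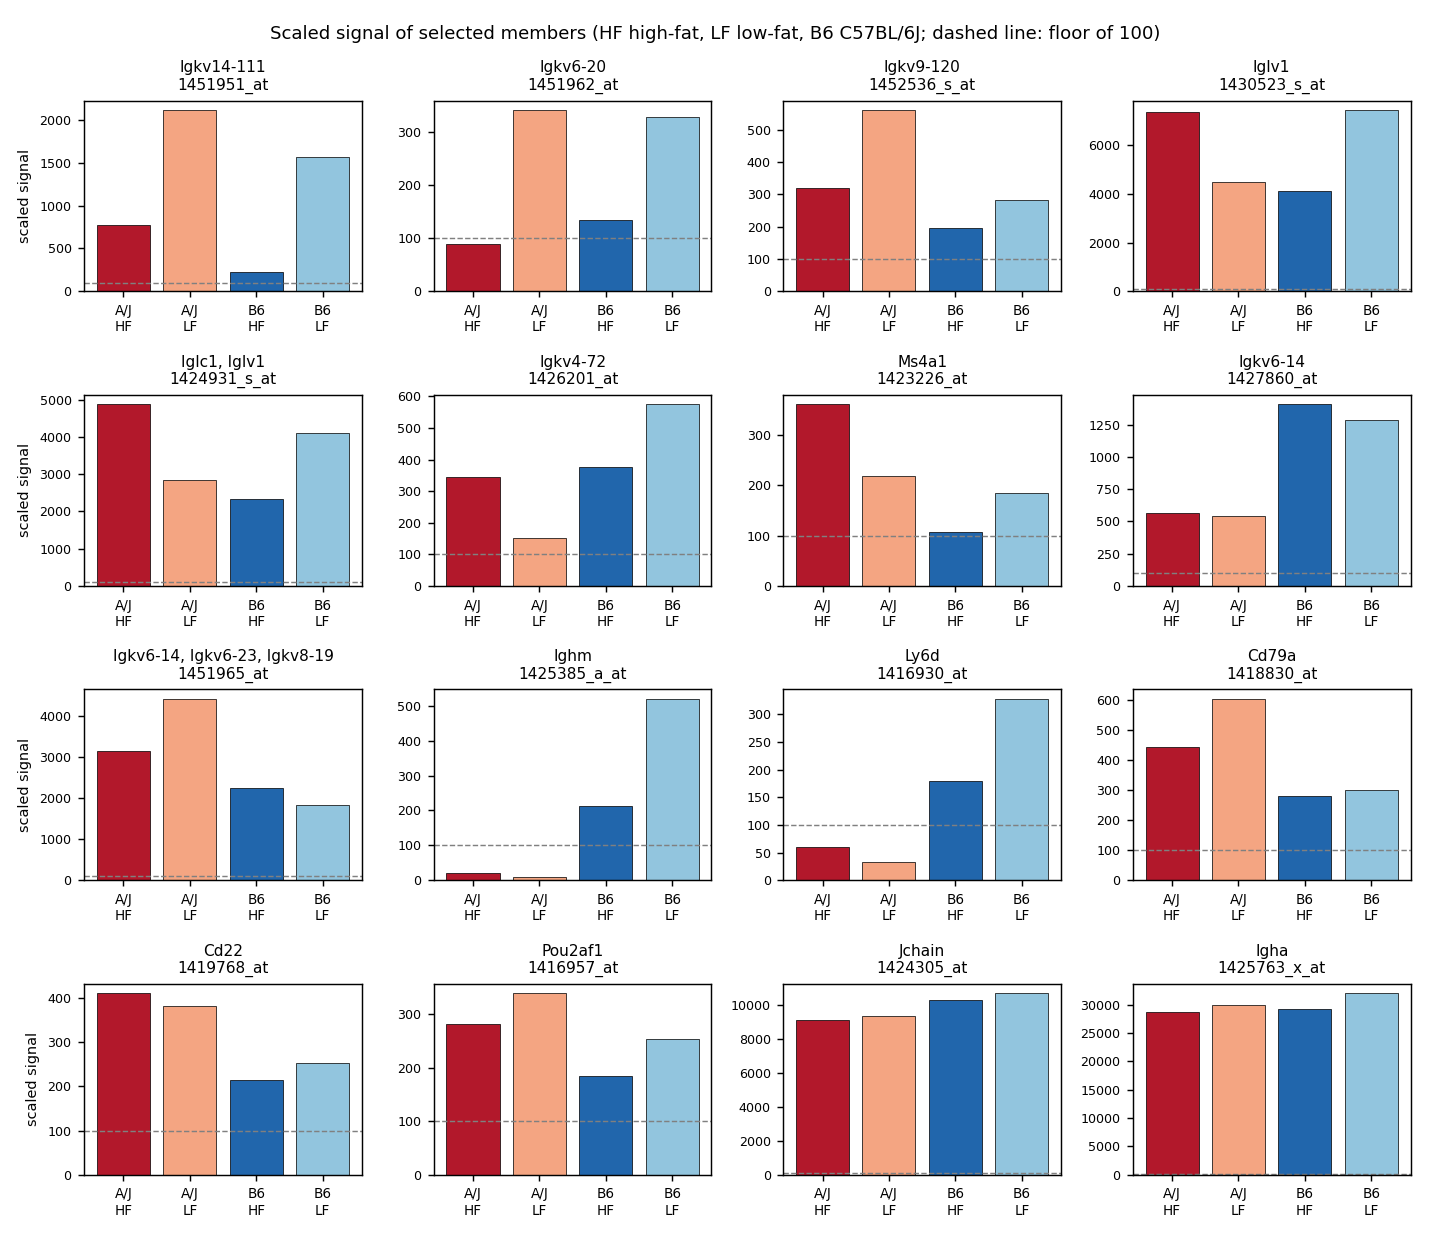
Scaled signal (vertical axes from 0, each panel with its own range) of 16 members on the 4 arrays, with 1 bar per array and the floor of 100 as a dashed line. Igkv14-111 and Igkv6-20 are lower on both high-fat arrays, the lambda probe sets are high in A/J-HF and C57BL/6J-LF, and Igkv6-14, Ighm 1425385_a_at and Ly6d are lower on both A/J arrays.

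By strain, 3 members were lower and 1 was higher in A/J by the limma fit, where 2.49% of all probe sets were lower and 2.37% higher. With a floor of 200 or without the filter on mean signal, 0 members were called for strain. The call for Igkv6-14 (1427860_at) rested on signals above the floor on every array. It had 564.2 in A/J-HF against 1411 in C57BL/6J-HF, and 540.4 in A/J-LF against 1290 in C57BL/6J-LF. It was 2.50-fold lower in A/J on high-fat and 2.39-fold lower on low-fat, a log2 strain term of -1.29 (SE 0.191, limma adjusted p = 0.0076). Probe set 1451965_at, annotated to Igkv6-14, Igkv6-23 and Igkv8-19, went the other way. It had 3144 in A/J-HF against 2256 in C57BL/6J-HF, and 4431 in A/J-LF against 1831 in C57BL/6J-LF (limma adjusted p = 0.0788). A pair with the same annotation, 1427576_at and 1427577_x_at, had more signal in A/J-HF than in C57BL/6J-HF (1.33-fold and 1.36-fold) and less in A/J-LF than in C57BL/6J-LF (1.41-fold and 1.05-fold). Probe sets listed under Igkv6-14 therefore disagreed in direction. Immunoglobulin variable segments are known to differ in sequence between inbred strains. Probe sequences were not used here, so unequal hybridisation to the alleles and unequal amounts of RNA cannot be told apart.

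The member called higher in A/J was the Igkv9-120 probe set 1452536_s_at. It had 321.2 in A/J-HF against 197.1 in C57BL/6J-HF, and 561.9 in A/J-LF against 282.3 in C57BL/6J-LF, a log2 strain term of 0.85 (SE 0.197, limma adjusted p = 0.0493). The adjusted p was 0.0517 with control probe sets in the scaling mean. Another Igkv9-120 probe set, 1460423_x_at, had 2289 in A/J-HF against 3240 in C57BL/6J-HF, and 3281 in A/J-LF against 3294 in C57BL/6J-LF, and the third, 1427750_at, was below the floor on all arrays. Probe set 1425738_at, listed only as the kappa locus Igk, had 3873 against 2480 on high-fat and 4029 against 2677 on low-fat, with A/J given before C57BL/6J (limma adjusted p = 0.118).

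The mu heavy chain of IgM, the receptor and secreted form made before class switching, had 7 tested probe sets that disagreed. Ighm 1425385_a_at had 20.5 in A/J-HF and 10.9 in A/J-LF, both under the floor, against 211.8 in C57BL/6J-HF and 520.3 in C57BL/6J-LF. The A/J signal was lower by at least 2.12-fold on high-fat and by at least 5.20-fold on low-fat. The log2 strain term with the A/J values set to the floor was -1.73 (SE 0.295, limma adjusted p = 0.0148), and -0.73 with a floor of 200 (adjusted p = 0.70). This probe set passed the filter on mean signal only through the C57BL/6J arrays, where it is high, so the test is no independent support for the difference. The 1427351_s_at probe set had 841.2 in A/J-HF against 597.5 in C57BL/6J-HF, and 1083 in A/J-LF against 1010 in C57BL/6J-LF. Probe set 1427329_a_at was 1.76-fold above C57BL/6J in A/J-HF and 1.26-fold below it in A/J-LF. The 1427870_x_at and 1425247_a_at probe sets were lower in A/J on both diets, by 1.62-fold and at least 1.19-fold on high-fat and by 1.18-fold and 1.48-fold on low-fat. The probe set shared by Ighv1-72 and Ighm, 1427851_x_at, had 110.7 in A/J-HF against 238.1 in C57BL/6J-HF, and 207.4 in A/J-LF against 234.0 in C57BL/6J-LF. The other 8 IgM probe sets were below the floor on all arrays. So were 3 of the 4 for Ighg3, which encodes the IgG3 heavy chain, and the remaining one, 1427503_at, reached 114.7 in A/J-LF only. No probe set carried an Ighd symbol. The probe set of Ighv14-2 alone, 1455530_at, was at most 50.4. Among kappa probe sets, 10 were not tested: 9 were below the floor on all arrays, and the Igkv19-93 probe set 1427855_at reached 105.7 in A/J-LF only.

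**Figure D4:**
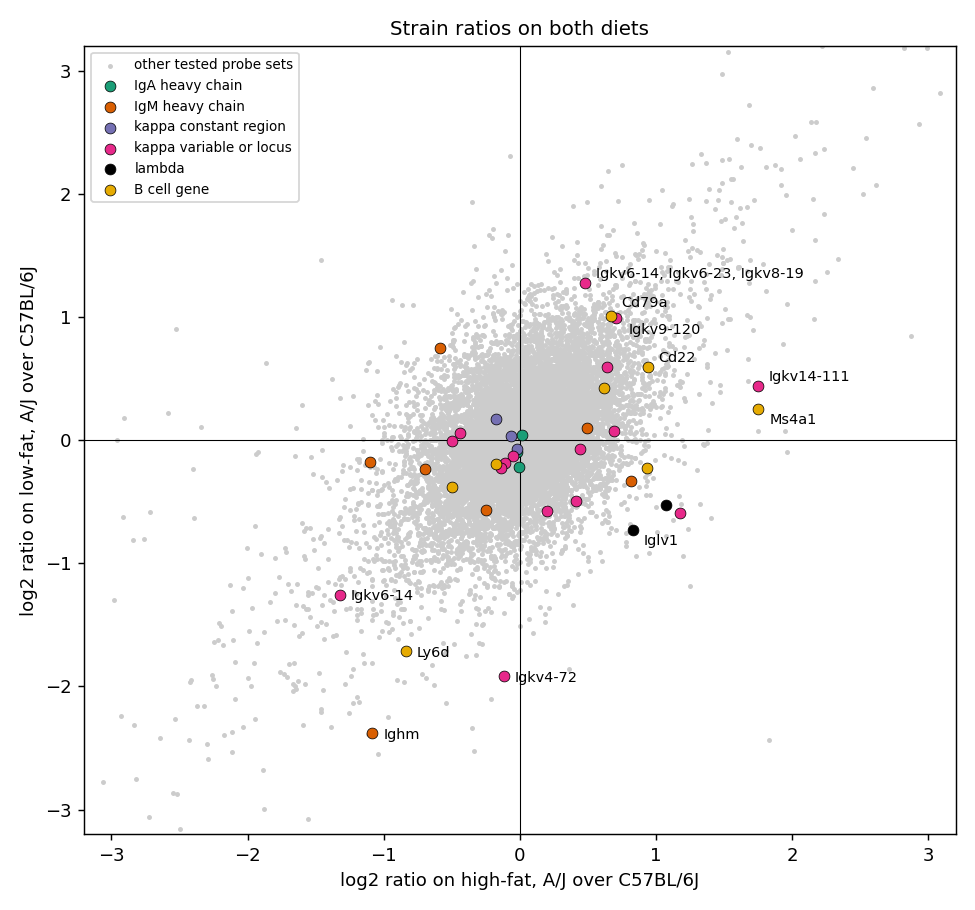
Log2 ratio of A/J over C57BL/6J for each tested probe set, on high-fat on the horizontal axis and on low-fat on the vertical axis; coloured points are the 39 members by class, grey points are other tested probe sets, and 61 of these lie outside the axes. Cd79a, Cd22 and Igkv9-120 1452536_s_at lie at the upper right, and Igkv6-14 1427860_at, Ly6d and Ighm 1425385_a_at at the lower left.

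Strain ratios of at least 1.5-fold on both diets were found for 4 members higher in A/J, where 3.78% of all tested probe sets were, and for 3 members lower, where 3.51% were. The higher ones were Cd79a, Cd22, Igk 1425738_at and Igkv9-120 1452536_s_at, and the lower ones were Igkv6-14 1427860_at, Ighm 1425385_a_at and Ly6d. Cd79a, a signalling chain of the B cell receptor that is kept in plasma cells, had 444.8 in A/J-HF against 280.0 in C57BL/6J-HF, and 606.5 in A/J-LF against 301.1 in C57BL/6J-LF. Both A/J values were above both C57BL/6J values, at 1.59-fold and 2.01-fold, and the strain term of 0.84 had an SE of 0.200 (limma adjusted p = 0.0543). Cd22, an inhibitory co-receptor of B cells, had 410.6 in A/J-HF against 214.2 in C57BL/6J-HF, and 381.4 in A/J-LF against 253.4 in C57BL/6J-LF (limma adjusted p = 0.0741). Its second probe set was below the floor on all arrays. Pou2af1, the coactivator that works with octamer-binding factors at immunoglobulin promoters, had 281.1 in A/J-HF against 183.5 in C57BL/6J-HF, and 339.3 in A/J-LF against 253.7 in C57BL/6J-LF (limma adjusted p = 0.183). None of these passed the test, and 14 of the 39 members had an unadjusted p under 0.05 for strain, as had 20.4% of all probe sets.

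Cd79b, the partner of Cd79a, had 227.0 in A/J-HF against 118.7 in C57BL/6J-HF, and 198.7 in A/J-LF against 231.9 in C57BL/6J-LF. A/J was thus 1.91-fold above C57BL/6J with high-fat food and 1.17-fold below it with low-fat food. For Ms4a1, with the values above, the A/J excess was 3.37-fold on high-fat and 1.19-fold on low-fat. Blnk, the adaptor that links the B cell receptor to downstream signalling, went the other way, with 778.1 in A/J-HF against 1097 in C57BL/6J-HF, and 966.4 in A/J-LF against 1261 in C57BL/6J-LF (limma adjusted p = 0.244). Ly6d, a surface antigen of early B lineage cells that squamous epithelia also make, had 59.4 in A/J-HF and 33.7 in A/J-LF, both under the floor. It had 178.7 in C57BL/6J-HF and 328.4 in C57BL/6J-LF. Its log2 strain term with the A/J values set to the floor was -1.28 (SE 0.244, limma adjusted p = 0.0237), and -0.36 with a floor of 200 (adjusted p = 0.70). Ly6d too passed the filter only through the C57BL/6J arrays. In mucosa, fewer cells of a type and less RNA per cell cannot be told apart.

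The promoters of 5 of the 8 B cell genes were found in the RefSeq table (GRCm38.p6, 250 bases before to 50 after the annotated start). Those of Cd79a, Cd22 and Pou2af1 are shown because these genes were higher on both A/J arrays, and that of Blnk because it was lower. Capitals mark matches, on either strand, to the octamer ATGCAAAT, the Ebf1 motif TCCCNNGGGA, the Ets core GAGGAA and the E-box CAGGTG. Cd79a lies at chr7:24897247-24897546 (+ strand), Cd22 at chr7:30878979-30879278 (- strand), Pou2af1 at chr9:51213440-51213739 (+ strand) and Blnk at chr19:40994172-40994471 (- strand).
Cd79a: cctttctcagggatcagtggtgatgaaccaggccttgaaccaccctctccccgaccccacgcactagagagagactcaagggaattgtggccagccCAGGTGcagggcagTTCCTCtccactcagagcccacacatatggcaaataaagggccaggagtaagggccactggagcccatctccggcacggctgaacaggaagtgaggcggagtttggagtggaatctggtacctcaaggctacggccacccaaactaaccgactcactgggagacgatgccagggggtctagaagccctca
Cd22: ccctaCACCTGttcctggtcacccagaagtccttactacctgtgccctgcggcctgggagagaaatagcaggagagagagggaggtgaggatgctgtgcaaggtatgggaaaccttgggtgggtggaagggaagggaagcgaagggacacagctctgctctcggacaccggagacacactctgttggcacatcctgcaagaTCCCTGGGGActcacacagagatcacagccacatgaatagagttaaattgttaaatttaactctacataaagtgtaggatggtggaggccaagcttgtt
Pou2af1: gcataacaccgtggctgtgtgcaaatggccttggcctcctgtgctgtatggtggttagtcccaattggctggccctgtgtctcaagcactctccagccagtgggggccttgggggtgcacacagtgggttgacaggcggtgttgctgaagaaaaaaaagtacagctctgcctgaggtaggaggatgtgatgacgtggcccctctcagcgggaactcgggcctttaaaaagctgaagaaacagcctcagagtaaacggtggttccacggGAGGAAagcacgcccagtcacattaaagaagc
Blnk: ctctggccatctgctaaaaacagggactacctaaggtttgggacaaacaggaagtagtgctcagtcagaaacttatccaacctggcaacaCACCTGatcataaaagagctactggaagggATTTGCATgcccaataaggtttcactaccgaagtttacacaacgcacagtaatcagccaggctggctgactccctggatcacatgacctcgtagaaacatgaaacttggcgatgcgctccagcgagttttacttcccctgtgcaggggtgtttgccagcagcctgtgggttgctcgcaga
The octamer was matched in Blnk, 130 bases before the start, and the Ebf1 motif in Cd22, 49 bases before the start. These occur in 1.74% and 0.904% of the 32851 promoters of this length. The string GAGGAA was matched in Cd79a and Pou2af1 and the E-box in Cd79a, Cd22 and Blnk, against 28.3% and 20.2% of all promoters. The promoter of Jchain, which is not shown, had an E-box 5 bases after the start and no other match. A match is a run of letters and not a measured binding site. Only these exact letters were searched, so variant forms of a motif are left unmarked, and a promoter without a match may still hold a site. The table held no promoter for the immunoglobulin segments used here.

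On high-fat 4 members were at least 2-fold higher and 3 lower in A/J, where 1.98% and 2.55% of all probe sets were. The higher ones were Igkv14-111 at 3.36-fold, Ms4a1, the lambda probe set 1424931_s_at at 2.10-fold and the Igk probe set 1427757_at at at least 2.26-fold. The median log2 ratio of the 39 members was 0.00, and that of all probe sets 0.02. Over the 19 members left without probe sets marked as shared between transcripts, it was 0.48, beside 0.05 for all such probe sets. On low-fat 2 members were at least 2-fold higher and 4 lower in A/J, where 3.14% and 2.8% of all were. The 4 were Ighm 1425385_a_at, Igkv4-72 at 3.78-fold, Ly6d and Igkv6-14. The median was -0.13 for members and 0.03 for all probe sets, and 0.06 for both without shared probe sets.

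In C57BL/6J 34 of 39 members were lower on high-fat, against 6598 of 13431 probe sets in all. The median log2 ratio was -0.34, and 0.00 for all probe sets. It was -0.62 over the 19 members without shared probe sets and -0.039 over all 65 without the filter, beside 0.00 for all probe sets in each. At least 1.5-fold lower were 16 members and higher were 0, where 4.44% of all probe sets were lower and 5.76% higher. At least 2-fold lower were 6, where 0.64% of all were. These were Igkv14-111, Igk 1427757_at at at least 2.92-fold, Ighm 1425385_a_at at 2.46-fold, Igkv6-20, Igkv15-103 and Ighm 1427329_a_at at 2.03-fold. At least 2-fold higher were 0 members, where 1.04% of all were. The C57BL/6J low-fat array was also the one with the 18S signal of 11010. T cell markers moved with these values: the summed signal of 9 such genes was 1393 in C57BL/6J-HF and 2170 in C57BL/6J-LF, and 3 of the 9 were under the floor on all arrays. The B cell and plasma cell marker sums, given below, were lower in C57BL/6J-HF than in C57BL/6J-LF too. The sum of macrophage and dendritic cell markers was not, with 6720 in C57BL/6J-HF and 6480 in C57BL/6J-LF. That of lymphoid follicle markers, with Ccl20 and Gp2 the largest in C57BL/6J-HF, was 4852 and 2507, but its genes differed in direction. Ccl20 had 2768 in C57BL/6J-HF and 1040 in C57BL/6J-LF. In the same order, Gp2 had 1363 and 669.8, Madcam1 had 189.6 and 124.2, and Cxcl13 had 260.2 and 241.7. Ltb, with 105.7 and 179.0, and Ccr6, with 116.0 and 188.2, were lower in C57BL/6J-HF, as most members were. The part of the 18S signal or of these cell types in the result was not tested.

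In A/J 25 of 39 members were lower on high-fat and 12 higher, against 6589 lower and 6690 higher of 13431 probe sets in all. The median log2 ratio was -0.10 for members, beside 0.00 for all probe sets. At least 2-fold higher was 1 member, Igkv4-72 at 2.27-fold, where 0.812% of all were. At least 2-fold lower were Igkv14-111 and Igkv6-20, where 1.05% of all were. The summed T cell marker signal was 1487 in A/J-HF and 1370 in A/J-LF.

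Marker sums of the B lineage largely restate the members: Cd79a, Cd79b, Ms4a1, Cd22 and Blnk are 5 of the 6 measured B cell markers, and Jchain is a plasma cell marker. Of 9 B cell markers on the array, 6 were measured. Pax5, the factor that fixes B cell identity, was under the floor on all arrays, and Cr2, a complement receptor of follicular B cells, reached 121.4 in A/J-HF and 118.8 in A/J-LF only. The summed signal of the 9 was 2647 in A/J-HF, 2924 in A/J-LF, 2108 in C57BL/6J-HF and 2565 in C57BL/6J-LF. The summed signal of 7 plasma cell markers was 18180 in A/J-HF, 19734 in A/J-LF, 20801 in C57BL/6J-HF and 22218 in C57BL/6J-LF. Most of that sum came from Jchain and from Xbp1, a factor of secretory cells that epithelium also makes. Xbp1 had 7378 in A/J-HF, 8374 in A/J-LF, 8960 in C57BL/6J-HF and 9829 in C57BL/6J-LF. Sdc1, the plasma cell and epithelial surface protein syndecan-1, had 955.3 in A/J-HF against 709.1 in C57BL/6J-HF, and 1045 in A/J-LF against 765.1 in C57BL/6J-LF. Prdm1, which drives plasma cell formation, lay between 318.1 and 399.1.

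Other genes of the B cell and IgA pathway were read from 7 lists with 87 entries, of which 74 had a probe set and 46 were measured. Each gene of these lists and of the marker sums was read from 1 probe set, the brightest of those annotated to it alone. Xbp1 and Sdc1 had 4 such probe sets each, and the other probe sets of a listed gene were not compared. Of the 46 measured entries of the 7 lists, 0 were called for diet by limma, where 0.134% of all tested probe sets rose and 0.0372% fell. For strain, 0 of these entries were called higher and 2 lower in A/J, where 2.37% and 2.49% of all were. Nos2, an inducible nitric oxide synthase on the list of IgA switching and help, had 5.89 in A/J-HF and 20.1 in A/J-LF, both under the floor, against 539.9 in C57BL/6J-HF and 539.7 in C57BL/6J-LF (limma adjusted p = 0.000429). Nos2 passed the filter on mean signal only through the C57BL/6J arrays, where it is high, so the test is no independent support for the difference. Ccl20, the chemokine of the epithelium over lymphoid follicles that attracts Ccr6-bearing B cells, had 202.7 in A/J-HF against 2768 in C57BL/6J-HF, and 482.2 in A/J-LF against 1040 in C57BL/6J-LF (limma adjusted p = 0.0315).

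Among 10 measured homing genes, Ccl20 was 13.7-fold lower in A/J on high-fat, whereas Vcam1, an adhesion molecule for lymphocytes, was 2.28-fold higher and the lymphotoxin subunit Ltb 2.31-fold higher. Cxcl13, which draws B cells into follicles, had 305.5 in A/J-HF against 260.2 in C57BL/6J-HF, and 475.2 in A/J-LF against 241.7 in C57BL/6J-LF. Itgb7, the integrin subunit of gut-homing lymphocytes, had a low-fat signal lower by at least 2.21-fold in A/J. Tnfsf13b, the B cell survival factor BAFF, was 2.29-fold lower in A/J on high-fat. Gp2, made by the epithelium over follicles and by pancreatic acinar cells, was at least 9.92-fold lower on high-fat in A/J and 2.03-fold higher in C57BL/6J. The exocrine pancreas sum given above was lowest in A/J-HF and highest in C57BL/6J-HF too, and its part in the Gp2 values was not tested.

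Pigr differed by at most 1.229-fold in each strain and diet comparison. Its list of IgA transport and Fc receptor genes also held Gp2, given above, and Fcer1g, both with larger ratios. Pigr had 15720 in A/J-HF, 19330 in A/J-LF, 19180 in C57BL/6J-HF and 19160 in C57BL/6J-LF, so A/J high-fat was the lowest of the 4. Of 12 measured genes of plasma cells and the secretory machinery, Creld2, an endoplasmic reticulum chaperone, was 2.02-fold lower in A/J on high-fat, and the others differed by less than 2-fold in each comparison. Of 6 B lineage transcription factors measured, Id3 was 2.37-fold lower in A/J on low-fat. The Fc receptor subunit Fcer1g was 2.45-fold lower in A/J on low-fat. The list of recombination, surrogate light chain and binding genes (Rag1, Rag2, Dntt, Igll1, Vpreb1 and Ighmbp2) held 6 genes, which were under the floor on all arrays. Mzb1 was not analysed here.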

How the data were processed

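Each group was 1 array hybridised with RNA pooled from 2 mice. Per the labels' protocols, the authors took an intensity for each transcript from the difference of perfect match over mismatch probes, using Microarray Suite 5.0 with the maker's defaults, and deposited it. No source here states a scaling target. Symbols came from the platform annotation: 65 probe sets held 36 gene IDs, of which 35 were in RefSeq (GRCm38.p6) with no symbol changed, and Igk-V21 was unmatched.

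Each array was scaled to a 2% trimmed mean of 500 over probe sets that are not controls, with factors between 2.718 and 3.411, floored at 100 and put on the log2 scale. The controls were left out of that mean after results with them had been seen. The 13431 probe sets with a mean of at least 100 were fitted with limma 3.58.1 (R 4.3.3) on additive strain and diet terms over 4 arrays, with Benjamini-Hochberg adjustment at 0.05. This leaves 1 residual degree of freedom, and calls near the threshold changed with the settings. The fit was tested on simulated data drawn from its own additive model, which cannot show whether that model holds for these arrays. The p-values do not measure the spread between mice. The number of arrays limits the precision. Ratios of 2 arrays have no test. Python 3.11.15 with pandas 2.3.3 and matplotlib 3.10.9 made summaries and plots.

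Members and lists were chosen with earlier results of these data known. Named were the 8 B cell genes, constant region probe sets, variable segments called by limma or among the 5 highest or 5 lowest ratios of a comparison, and listed genes called, at least 2-fold apart, or of main interest (such as Pigr, Xbp1, Prdm1, Sdc1, Mzb1, Cxcl13). Pax5, Cr2, Igkv8-30, Igkv4-68, Igkv19-93, Ighv14-2, Igk 1425738_at and further probe sets of Iglv1, Igkv6-14 and Igkv9-120 fall outside this rule and were chosen after their values were seen. Alternatives varied the scaling, floor, filter, annotation, fit and arrays.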

Additional observations from a re-analysis of the deposited data

Results flagged for a closer look

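For 4 members the high-fat over low-fat ratio was at least 1.5-fold above 1 in A/J and at least 1.5-fold below 1 in C57BL/6J. The log2 diet ratio in A/J minus that in C57BL/6J was 1.8 for Igkv4-72, 1.602 for the probe set of Iglc1 and Iglv1, 1.564 for that of Iglv1 alone and 1.502 for Ms4a1. The difference was not tested, since each group is 1 array, and the lambda probe sets share a target.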

How the results depend on the processing

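No paired analysis was possible because each group is 1 array and the labels give no replicate numbers. Over 16 results and their alternatives, 168 values were recomputed. Of these 46 moved, and 122 were counts within 1.5 times the reported one or medians within a 95% interval over the members, which is wide and lets medians change sign. The count of members called higher in A/J by limma, 1 as reported, was 0 with quantile normalisation, a floor of 50, a floor of 200, no filter, without shared probe sets, with 1 factor only and with controls in the scaling mean (added after seeing the data). It was 8 without scaling, 4 with a pseudocount of 50, 2 with 1-gene probe sets and 5 with an intensity trend. The count called lower, 3, was 0 with a floor of 200 or no filter and 1 with 1 factor only. The count lower with diet, 2, was 0 with quantile normalisation, floors of 50 and 200, no filter, without shared probe sets, 1 factor only and controls in the scaling mean. Leaving out any array gave between 0 and 0 calls for these 3 counts, in a fit that also drops the other factor, so the loss cannot be laid to an array; the log2 term of Igkv6-14 stayed between -1.35 and -1.22. Members at least 2-fold higher in A/J-LF than in C57BL/6J-LF, 2, were 1 with quantile normalisation, a pseudocount or 1-gene probe sets. In A/J-HF against C57BL/6J-HF, 4 higher became 8 without scaling and 2 with a floor of 200, and 3 lower became 1 without scaling, with a floor of 200 and without shared probe sets. With diet in A/J, 1 higher became 0 with a floor of 200 or a pseudocount, and 2 lower became 1 with a floor of 200. In C57BL/6J, 6 lower became 10 without scaling, and the median log2 ratio of -0.34 became -0.039 without a filter, -0.21 with a floor of 200, -0.49 without scaling and -0.62 without shared probe sets. The strain medians, -0.13 for low-fat and 0.00 for high-fat arrays, became 0.06 and 0.48 without shared probe sets, and 0.04 and 0.28 without scaling, which moved the medians of all probe sets to 0.21 and 0.30. The diet median in A/J lay between -0.14 and 0. Of the alternatives that keep all arrays, Igkv6-14 stayed called in 9 of 11, Ly6d in 8 of 11, Ighm 1425385_a_at in 7 of 10, Igkv9-120 1452536_s_at in 4 of 10, and Igkv14-111 and Igkv6-20 in 4 of 11 each. Ly6d and Ighm 1425385_a_at passed the filter only through the C57BL/6J arrays, so their tallies are no independent support for a strain difference. Low signals limit all members near the floor.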
